A study of Rattus norvegicus with 4 samples.

Results

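The genes of the major histocompatibility complex (MHC), which in the rat is named RT1, were followed in 4 samples of NR8383, a macrophage line established by lavage from the lung of a normal rat. The genes were chosen by name: every gene whose symbol starts with RT1-, and B2m, Tap1, Tap2, Tapbp, Erap1, Nlrc5, Cd74, Ciita, Cd80 and Cd86. Of these, 50 genes were measured, by 66 probes, of 16581 named genes on the array. They comprised 32 class I genes, 10 class II genes and 8 supporting genes. All 4 samples form 1 group: cells at 20 passages were seeded for 48 h and then received NRCWE049, carbon nanotubes functionalized with NH2 groups, at 1.2 cm²/cm² during 4 h. The series also describes a control without nanotubes with the same number of replicates. Those controls were not analysed here, so the values describe exposed cells and cannot show an effect of the nanotubes. The replicates are biological replicates of 1 cell line, per the series' design text.

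MHC molecules display peptides to T cells. A class I molecule is a heavy chain paired with beta-2 microglobulin (B2m) and carries peptides that the TAP transporter brings from the cytosol into the endoplasmic reticulum. The loaded molecule moves to the cell surface, where CD8+ T cells read the peptide. A class II molecule is a pair of an alpha and a beta chain that is held by the invariant chain (Cd74) until an endosome, where DM exchanges a fragment of that chain for a peptide to be read by CD4+ T cells. NLRC5 drives transcription of class I genes and CIITA that of class II genes. Macrophages are known to carry class I at all times and to raise class II after interferon gamma.

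RNA was hybridised to one-colour Agilent arrays, 1 array per sample. A probe was called detected when Agilent's flag for a signal well above background held on 4 of 4 arrays, and a gene was detected when at least 1 of its probes was. Signals are Agilent's processed signals, which are background-corrected and in arbitrary units. Levels are log2 signals after subtraction of the array's own 75th percentile, taken over probes detected on every array, and are given as mean ± SD over the 4 replicates. In signal units it was 1970 and 1980 on the arrays of replicates 1 and 2, and 2493 and 2403 on those of replicates 3 and 4. The lowest signal well above background was between 16.7 and 20.1 on the 4 arrays. Signals of different probes depend on the probe and were not set against each other. Of the macrophage marker list, 10 of 10 measured genes were detected, among them Csf1r, Cd68 and Spi1. Detection was 4 of 9 for dendritic cell markers, 2 of 5 for B cell markers, 4 of 9 for T and NK cell markers and 0 of 4 for type II pneumocyte markers. Of all named genes, 52.5% were detected. The dendritic, B, T and NK cell shares lay below that and are not read as a sign of those cells. In bulk RNA, fewer cells of a type and less RNA per cell cannot be told apart.

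Class I genes were detected more widely than class II genes in the exposed cells. Of the class I genes, 22 of 32 (68.8%) were well above background on every array, against 4 of 10 class II genes (40%). Among all named genes the share was 52.5%. The class II share lay below that of all genes and the class I share above it, and no test was made across genes, which are not replicates. The difference followed subgroups within each class. RT1-A genes (3 of 3), RT1-CE genes (10 of 11) and the RT1-N, -O, -S and -T genes (7 of 9) were mostly detected, and RT1-M genes (2 of 9) mostly were not. Of class II, both DM genes were detected, 2 of 5 chains of the presenting molecules B and D, and 0 of 3 DO and H genes. Both class I genes that the gene table lists as long non-coding RNAs, RT1-CE6 and RT1-T24-2, were not detected, so 22 of 30 protein-coding class I genes were. The classes were not probed alike: class I had 45 probes for 32 genes and class II 10 probes for 10 genes. A gene counted when any of its probes passed. When every probe had to pass, 20 class I and 4 class II genes were detected, against 47.7% of all named genes.

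**Figure D1:**
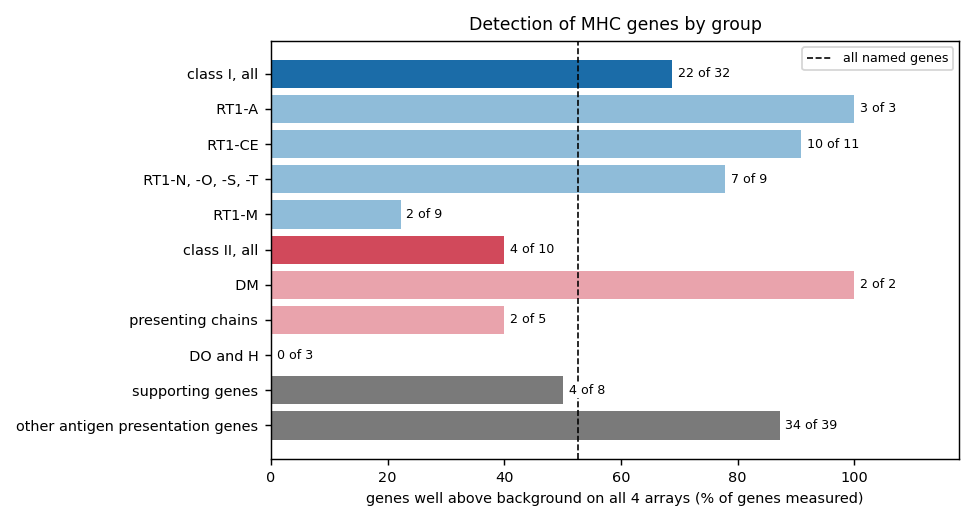
Share of measured genes that were well above background on all 4 arrays (horizontal axis, %) for class I and its subgroups, class II and its subgroups, the 8 supporting genes and 39 other antigen presentation genes; the number beside each bar gives genes detected of genes measured. Class I reached 22 of 32 and class II 4 of 10, and the dashed line marks 52.5% for all named genes.

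The classical class I genes were all detected. RT1-A1, a heavy chain gene of the RT1-A region that encodes the main peptide-presenting molecules, had signals of 132361, 129982, 164098 and 159005 in replicates 1 to 4. Its level was 6.05 ± 0.02 (SD, n = 4), the smallest SD among the 30 detected genes of the set. The unscaled signals were higher in replicates 3 and 4, as was the 75th percentile of those arrays. RT1-A2 had signals of 56785, 71117, 87039 and 82505 and a level of 5.06 ± 0.14, with replicate 1 lowest. RT1-A3 had signals of 86942, 93138, 114896 and 107248 and a level of 5.51 ± 0.04. The second probe of RT1-A3 had signals of 43.9, 34.0, 40.9 and 62.2 and was also well above background on every array, so the probes of this gene disagree in brightness. RT1 genes are close relatives, and a probe may bind the RNA of a relative. The gene names below are those of the probe's accession, and signal shared among relatives was not tested.

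B2m, the light chain that class I heavy chains need to leave the endoplasmic reticulum, had signals of 49790, 44813, 58977 and 54453 and a level of 4.56 ± 0.07. The genes of the peptide transporter were also detected. The brighter probe of Tap1 had signals of 664, 456, 705 and 696 and a level of -1.82 ± 0.23, with replicate 2 lowest. The second probe of Tap1 was also well above background on every array. Its level was lowest in replicate 4, although its signal was lowest in replicate 2. Tap2 had signals of 2653, 2779, 3839 and 3631 and a level of 0.53 ± 0.09. Tapbp, which encodes tapasin, the protein that holds class I molecules at the transporter, had signals of 1516, 1472, 1986 and 2070 and a level of -0.34 ± 0.09. All 4 of these assembly genes were therefore detected on each array. Erap1, an aminopeptidase that trims class I peptides, and Nlrc5 were not analysed here, because no probe accession on the array matched either gene in the gene table.

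The RT1-CE genes are a group of further class I heavy chain genes. Of 11 measured, 10 were detected. RT1-CE16 had signals of 33634, 30876, 40588 and 40962 and a level of 4.04 ± 0.06. Its second probe had signals of 22252, 19681, 27851 and 28011, so both probes were above background and both had replicate 2 lowest. RT1-CE15 (2.07 ± 0.08), RT1-CE5 (1.89 ± 0.20), RT1-CE13 (1.75 ± 0.09), RT1-CE10 (1.66 ± 0.13), RT1-CE7 (1.23 ± 0.11), RT1-CE3 (1.15 ± 0.15), RT1-CE12 (0.63 ± 0.13) and RT1-CE4 (-1.86 ± 0.12) were detected on all arrays as well. RT1-CE11 had signals of 79.3, 51.8, 83.7 and 88.4, all above background, with replicate 2 lowest (level -4.89 ± 0.27). RT1-CE6 had signals of 13.4, 18.3, 17.8 and 11.1 and passed the background flag in replicate 2 only.

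The non-classical class I genes split by family. RT1-M3-1, whose mouse counterpart H2-M3 presents N-formylated peptides, had signals of 2210, 2189, 3030 and 2881, and its second probe 601, 592, 826 and 760. Its level was 0.21 ± 0.07, and both probes were above background on every array. RT1-M6-2 had signals of 18465, 16354, 21840 and 20698 and a level of 3.13 ± 0.08. The other RT1-M genes measured were RT1-M1-2, RT1-M1-4, RT1-M1-5, RT1-M2, RT1-M4, RT1-M5 and RT1-M6-1. None of these 7 was well above background on any array, with signals between 3.32 and 20.9. The mouse relatives of the RT1-M1 genes are known from sensory neurons of the vomeronasal organ. The pair RT1-M6-1 and RT1-M6-2 differed in detection on every array: RT1-M6-1 had signals of 3.32, 4.19, 4.06 and 4.02.

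Among the other non-classical genes, RT1-S3, listed in the gene table with the synonym H2-T23, is the counterpart of the mouse gene for Qa-1, which presents leader peptides of other class I molecules to receptors of natural killer cells. It had signals of 4687, 4234, 5882 and 5750 and a level of 1.21 ± 0.08. RT1-S2 had signals of 22853, 21496, 30690 and 31070 and a level of 3.57 ± 0.11. Both were well above background on all arrays. The brightest probe of RT1-T24-4 was printed in 10 copies on each array, and 1 copy was flagged as an outlier in each of replicates 2, 3 and 4. The mean signal of the copies was 21552, 24104, 31325 and 30398, with a coefficient of variation between copies of 10.9% in replicate 1 and of 1.69% to 3.43% in replicates 2 to 4. The other probes of RT1-T24-4 had signals of 2002, 1993, 2592 and 2655, and of 1987, 2208, 2798 and 2353. They were also well above background on every array, so the probes of this gene disagree in brightness. RT1-T24-3 (0.22 ± 0.06), RT1-N3 (-0.41 ± 0.15), RT1-N2 (-1.12 ± 0.14) and RT1-T18 (2.58 ± 0.08) were detected too. For RT1-N2 and RT1-T18, 1 of 2 probes was detected and the other was not above background on any array. RT1-O1 had signals of 9.76, 4.72, 4.02 and 4.01 and was above background on no array, and RT1-T24-2 had 12.6, 10.9, 14.2 and 19.1 and was likewise on none.

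**Figure D2:**
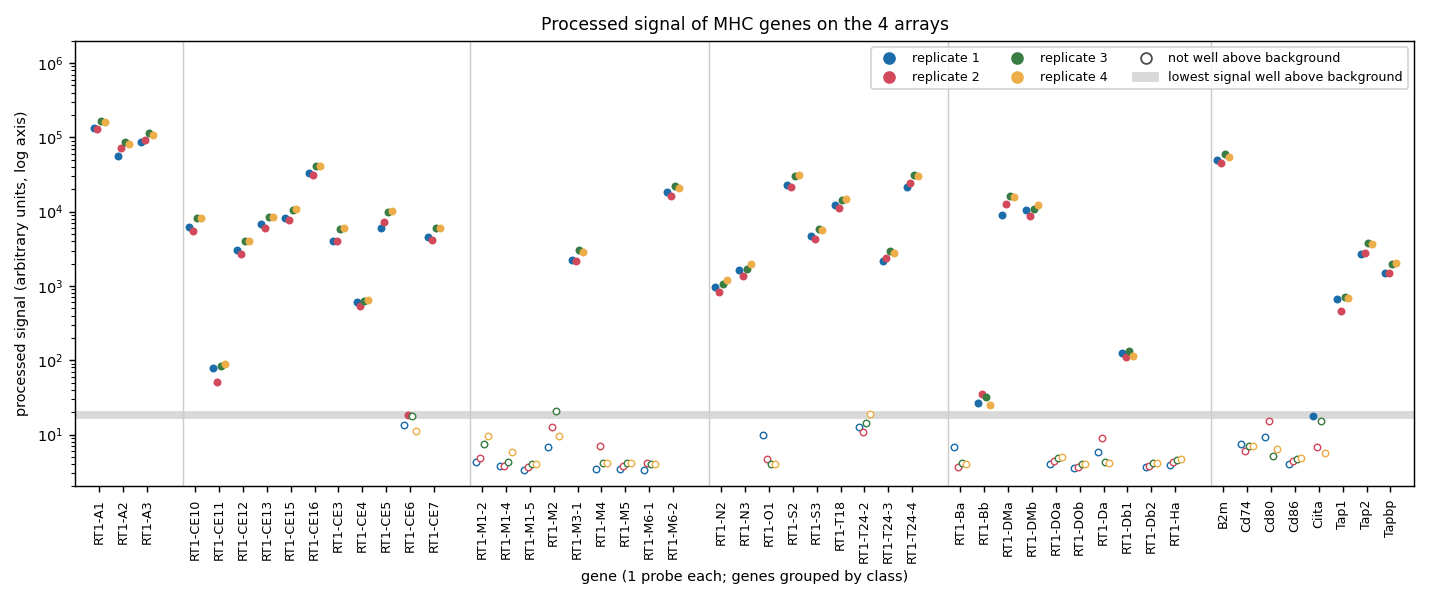
Processed signal (vertical log axis, arbitrary units) of the brightest probe of each of the 50 genes (the brightest detected one where any was detected) in the 4 replicates, with filled circles where the signal was well above background and open circles where it was not. The grey band spans the lowest signals well above background on the 4 arrays, 16.7 to 20.1; RT1-DMa and RT1-DMb lie far above it, RT1-Bb just above it, and 6 class II genes, Cd74, Cd80 and Cd86 below it in all replicates.

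In class II, both genes of the peptide exchange factor DM were detected, as were 2 of 5 genes of the presenting chains. RT1-DMa, its alpha chain gene, had signals of 8911, 12829, 16438 and 15678 and a level of 2.58 ± 0.27. RT1-DMb, its beta chain gene, had signals of 10682, 8637, 11021 and 12264 and a level of 2.27 ± 0.15. Both genes were well above background on every array. RT1-DMa was lowest in replicate 1, at a level of 2.18 against 2.70, 2.72 and 2.71 in replicates 2 to 4. Its spot lay in an area of array 1 in which many spots were dim, and without that spot the SD over the 3 other replicates was 0.01. RT1-CE5 and RT1-S2 also had their spot in a dim area of array 1. RT1-CE5 was lowest in replicate 1, at a level of 1.61 against 1.89, 1.99 and 2.07 in replicates 2 to 4, and RT1-S2 was not, at 3.54 against 3.44, 3.62 and 3.69.

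The presenting molecules B and D, the rat counterparts of human DQ and DR, showed no detected alpha chain. RT1-Ba, the alpha chain gene of B, had signals of 6.81, 3.70, 4.10 and 4.05, below the lowest signal that was well above background on each array. RT1-Bb, its beta chain gene, had signals of 26.9, 34.9, 31.6 and 25.1 and passed the flag on all 4 arrays close to that limit (level -6.23 ± 0.31). RT1-Da, the alpha chain gene of D, had signals of 5.89, 8.90, 4.22 and 4.14 and passed on no array. RT1-Db1, a beta chain gene of D, had signals of 126, 112, 133 and 115, and was above background on all arrays (level -4.19 ± 0.17). RT1-Db2, the other beta chain gene of D, had signals of 3.69, 3.74, 4.14 and 4.09 and passed on none. For both molecules, a beta chain gene was thus detected without its alpha chain gene.

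Other class II genes were not detected. RT1-DOa and RT1-DOb encode DO, which restrains DM and is best known from B cells. RT1-DOa had signals of 4.02, 4.41, 4.78 and 4.99, and RT1-DOb 3.53, 3.66, 4.05 and 4.00. RT1-Ha, the counterpart of the human DP alpha chain gene, had 3.87, 4.22, 4.59 and 4.69. All 3 were above background on no array. Each class II gene had 1 probe, so a gene not detected here may still be expressed.

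The invariant chain gene Cd74 was not detected although its probe was printed in 10 copies per array. The mean signal of its copies was 7.41, 5.99, 7.09 and 6.93, and 0 of 10 copies were well above background on each array. Ciita, the class II transactivator gene, had 2 probes. The brighter had signals of 18.0, 6.81, 15.0 and 5.58 and passed the flag in replicate 1 only, and the other, at 4.24, 4.78, 5.12 and 5.36, passed on no array. Cd80 and Cd86 encode the ligands of the T cell costimulatory receptor CD28. Cd80 had signals of 9.33, 15.4, 5.09 and 6.39, and Cd86 had 4.01, 4.40, 4.75 and 4.86, both above background on no array. Of the 8 measured supporting genes, the 4 that serve class I assembly were therefore detected and the 4 that serve class II or costimulation were not, against 52.5% of all named genes detected.

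**Figure D3:**
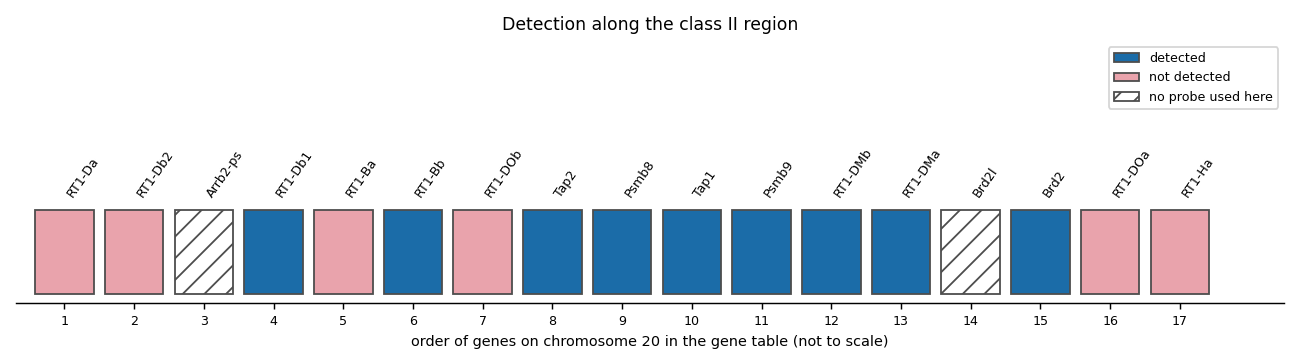
Genes of the class II region of chromosome 20 in the order of the gene table (horizontal axis, not to scale), coloured by detection on all 4 arrays. The genes from Tap2 to RT1-DMa, 6 in a row, were detected, while RT1-Da, RT1-Db2, RT1-Ba and RT1-DOb on one side and RT1-DOa and RT1-Ha on the other side were not. Outside that run, RT1-Db1, RT1-Bb and Brd2 were detected as well. In all, 9 of 15 measured genes of the region were detected, against 52.5% of all named genes.

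In the gene table, the genes of the region run in the order RT1-Da, RT1-Db2, Arrb2-ps, RT1-Db1, RT1-Ba, RT1-Bb, RT1-DOb, Tap2, Psmb8, Tap1, Psmb9, RT1-DMb, RT1-DMa, Brd2l, Brd2, RT1-DOa and RT1-Ha. Of these 17 genes 15 were measured, and 9 of the 15 were detected, against 52.5% of all named genes. The detected genes included a run of 6 neighbours from Tap2 to RT1-DMa. The run holds both transporter genes, both DM genes, and Psmb8 and Psmb9, subunits of the immunoproteasome. RT1-DOb, just before the run, was not detected, and neither were RT1-DOa and RT1-Ha, after Brd2, which was. The measured genes of the region that are not class II (Tap2, Psmb8, Tap1, Psmb9 and Brd2) were all detected, and the 6 undetected genes were all class II. The order of the genes is given as a description.

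Promoter letters are shown for detected and undetected members because CIITA and NLRC5 act through a shared promoter module whose Y box is bound by NF-Y at the letters CCAAT. Windows of 250 bases before the annotated start were taken from RefSeq (GRCr8), and matched 44 of the 50 genes. They were searched on both strands for CCAAT, for TGACG, part of the cyclic AMP response element that the X2 box resembles, and for GAAA followed after any 2 bases by GAAA, a pattern typical of interferon-stimulated response elements. In all windows below, read 5′ to 3′ on the gene's strand, matches to any of the 3 motifs on either strand are in capitals. They are the windows of RT1-A2 (chr20:4872621-4872870, plus strand), B2m (chr3:129549080-129549329, plus strand), RT1-DMa (chr20:4712336-4712585, minus strand), RT1-Db1 (chr20:4560163-4560412, minus strand), RT1-Ba (chr20:4576807-4577056, plus strand) and RT1-Da (chr20:4515165-4515414, plus strand). The first 4 genes were detected and the last 2 were not.
RT1-A2: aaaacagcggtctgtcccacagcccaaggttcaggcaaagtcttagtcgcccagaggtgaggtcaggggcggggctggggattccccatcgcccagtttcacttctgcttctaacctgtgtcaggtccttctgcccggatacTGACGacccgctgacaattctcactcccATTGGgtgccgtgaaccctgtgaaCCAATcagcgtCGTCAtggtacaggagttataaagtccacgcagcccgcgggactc
B2m: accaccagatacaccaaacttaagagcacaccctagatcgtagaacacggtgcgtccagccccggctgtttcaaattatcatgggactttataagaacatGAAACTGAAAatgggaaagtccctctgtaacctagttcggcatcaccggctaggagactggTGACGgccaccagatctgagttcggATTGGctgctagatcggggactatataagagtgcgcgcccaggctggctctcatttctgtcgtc
RT1-DMa: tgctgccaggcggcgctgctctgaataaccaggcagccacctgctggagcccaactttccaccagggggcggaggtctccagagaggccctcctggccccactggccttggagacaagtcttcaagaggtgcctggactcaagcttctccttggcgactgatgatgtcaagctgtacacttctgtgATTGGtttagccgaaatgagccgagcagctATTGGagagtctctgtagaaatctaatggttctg
RT1-Db1: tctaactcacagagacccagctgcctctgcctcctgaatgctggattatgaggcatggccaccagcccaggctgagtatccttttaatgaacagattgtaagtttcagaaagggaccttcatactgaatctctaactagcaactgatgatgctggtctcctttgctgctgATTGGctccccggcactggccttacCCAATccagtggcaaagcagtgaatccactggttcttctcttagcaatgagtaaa
RT1-Ba: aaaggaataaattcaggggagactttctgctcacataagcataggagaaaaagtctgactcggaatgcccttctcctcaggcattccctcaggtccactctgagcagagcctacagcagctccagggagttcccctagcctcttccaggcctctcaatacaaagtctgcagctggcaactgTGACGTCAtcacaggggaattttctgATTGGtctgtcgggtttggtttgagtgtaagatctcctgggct
RT1-Da: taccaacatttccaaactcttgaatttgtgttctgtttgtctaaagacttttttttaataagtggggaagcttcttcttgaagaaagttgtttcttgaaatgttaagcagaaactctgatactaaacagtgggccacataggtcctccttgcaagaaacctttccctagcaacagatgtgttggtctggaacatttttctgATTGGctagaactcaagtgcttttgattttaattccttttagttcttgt

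The letters CCAAT were present in the windows of detected and undetected class II genes alike. They were in 3 of 3 windows of detected class II genes and in 6 of 6 of undetected ones, against 34.0% of 33469 windows in the RefSeq table. RT1-DMb had no window in that table. In class I, CCAAT was in 16 of 21 windows of detected genes (76.2%) and in 2 of 7 of undetected genes (28.6%). TGACG was in 7 of 21 windows of detected class I genes and 1 of 7 of undetected ones, and in 0 of 3 windows of detected class II genes and 1 of 6 of undetected ones, which was RT1-Ba. Over all windows its share was 18.2%. In RT1-Ba, the match stands 69 to 65 bases before the start, overlaps a second match on the other strand, and lies upstream of the CCAAT letters at 43 to 39. In RT1-A2 both TGACG and CCAAT matched, at 108 to 104 and 56 to 52 bases before the start among others. The GAAA pair was in 3 of 21 windows of detected class I genes, in 0 of 7 of undetected ones, in no class II window, and in 3.4% of all windows. It was also found in B2m, Tap1, Tap2 and Tapbp, all detected, and in 1 of the windows of Cd80, which was not. Class I windows come from related genes and are not independent, and a match describes letters and not a bound site.

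The spread between replicates is given by class. The median SD of the level was 0.11 over the 22 detected class I genes and 0.22 over the 4 detected class II genes, against 0.15 over the 8713 detected named genes. The SDs ran from 0.02 for RT1-A1 to 0.31 for RT1-Bb, whose signals lay close to the background limit. RT1-DMa, another of the 4 class II genes, had an SD of 0.27 that included its spot in the dim area of array 1. Without that spot its SD over the other replicates was 0.01. The class II median therefore does not show a wider spread of the class. A limma fit over all detected genes, with an F test of each gene's variance against that expected at its intensity, called 0 of 30 members after Benjamini-Hochberg adjustment, against 0.0115% of all detected genes (1 gene). At an unadjusted p under 0.05 there was 1 member, RT1-DMa (adjusted p = 0.969, limma), and 375 of the 8713 genes (4.3%). A variance over 4 arrays is imprecise, so members may vary more than this test could call. In 3 of 30 members, 1 replicate stood apart from the rest by Dixon's criterion, against 6.47% of all detected genes.

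**Figure D4:**
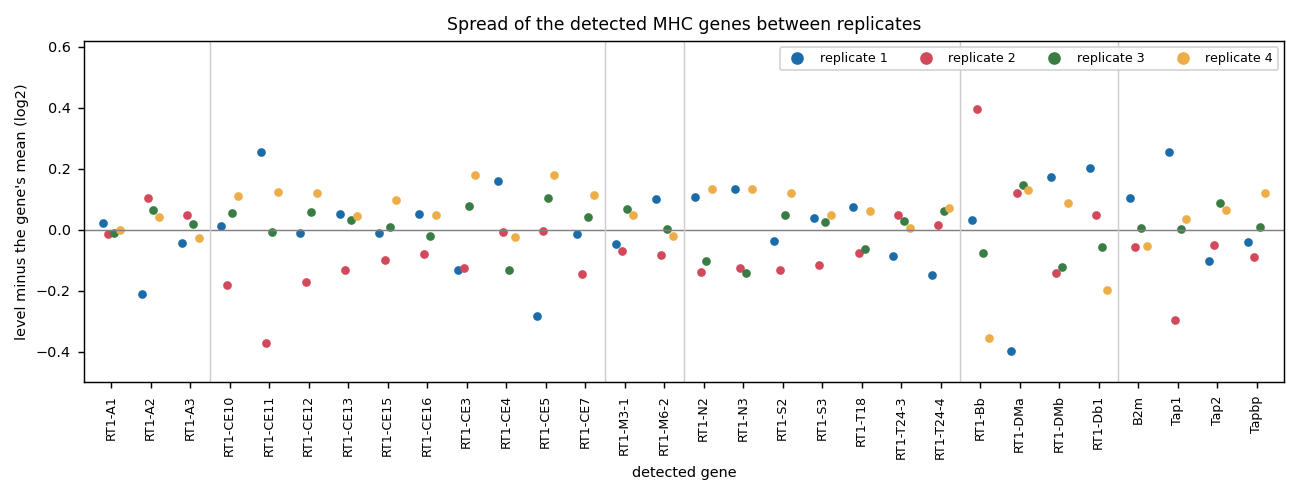
Level of each of the 30 detected genes in each replicate minus the gene's own mean (vertical axis, log2), with genes grouped as class I subgroups, class II and supporting genes. Replicate 2 is the lowest point for 14 of 22 class I genes, and RT1-DMa is low in replicate 1.

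Class I genes were most often lowest in replicate 2. It was the lowest of the 4 for 14 of 22 detected class I genes (63.6%), among them 7 of 10 RT1-CE genes, for 1 of 4 class II genes and for 3 of 4 detected supporting genes. Among all detected named genes, replicate 2 was lowest for 27.4%. These counts use each gene's brightest detected probe, and other detected probes did not always have the same lowest replicate. For RT1-S3 and RT1-CE7, the brightest probe was lowest in replicate 2 and the second in replicate 1. For RT1-CE3 and RT1-N3, only the second probe was lowest in replicate 2. The second probe of Tap1 was lowest in replicate 4. Macrophage markers also had a negative mean deviation in replicate 2 (-0.08), but the markers went both ways. Itgam and Cd14 were low in replicate 2, at -2.17 and -2.76 against their means of -1.69 and -2.42. Itgam was low in replicate 1 as well (-2.08). Pparg and Lyz2 were high in replicate 2, at 3.39 and 6.58 against their means of 3.18 and 6.43. The mean therefore does not show a low replicate 2 across that list. Other lists went either way. The mean deviation in replicate 2 was -0.12 for supporting genes and 0.00 for the other antigen presentation genes. It was 0.11 for class II genes and 0.05 for the classical RT1-A genes. The median deviation of the class I genes from their own mean was -0.09 in replicate 2, and 0.00, 0.03 and 0.07 in replicates 1, 3 and 4. For all detected genes these medians were -0.01 in replicate 2 and 0.02, -0.01 and 0.01 in the others. The class I median had the same sign with the other scalings tried, where replicate 2 was lowest for 14 or 15 of the 22 genes, and with the normexp background correction, where it was lowest for 11. The class I probes may share signal from related RNAs, so the 22 genes are not independent.

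Where a gene had several detected probes, these followed each other between replicates to different extents. The 2 probes of RT1-M3-1 differed in their deviations by at most 0.03, those of RT1-CE13 by 0.04 and those of RT1-N3 by 0.06. The probes of RT1-S3, RT1-A3 and RT1-CE3 differed by up to 0.40, 0.39 and 0.37. RT1-S3 and RT1-A3 each had 1 bright and 1 dim probe. The second probe of RT1-CE3 had signals of 526, 396, 570 and 513. The probes of RT1-CE15 differed by only 0.14, although its second probe had signals of 283, 242, 315 and 324. The dim probe of RT1-S3 had signals of 47.3, 59.6, 82.9 and 89.0.

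The rest of the pathway was mostly detected. Of 39 other antigen presentation genes measured, 34 (87.2%) were well above background on all arrays, against 52.5% of all named genes. These included all 5 genes of the immunoproteasome and its activator, Psmb8 (3.76 ± 0.23), Psmb9 (2.71 ± 0.08), Psmb10 (2.13 ± 0.21), Psme1 (3.79 ± 0.07) and Psme2 (4.33 ± 0.08), which shape peptides for class I. All 5 loading and trimming genes were detected: the chaperone genes Calr (3.14 ± 0.37) and Canx (0.95 ± 0.16), Pdia3 (0.02 ± 0.20), the tapasin relative Tapbpl (-3.13 ± 0.82) and the aminopeptidase gene Lnpep (-4.49 ± 0.32). Calr, Tapbpl and Lnpep had the highest SDs of the detected genes of this list. Calr had signals of 13618, 15398, 22112 and 30118, highest in replicate 4.

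Genes that prepare class II peptides in endosomes were detected as well. The thiol reductase gene Ifi30 had a level of 4.95 ± 0.08, and the protease genes Ctss, Lgmn and Ctsl had levels of 1.94 ± 0.10, 0.28 ± 0.14 and -1.87 ± 0.15. Of the 7 factors of the class II promoter module, 6 were detected: Rfx5 (-1.49 ± 0.28), Rfxank (0.04 ± 0.09), Rfxap (-2.49 ± 0.13), Creb1 (-3.52 ± 0.29), Nfya (-4.87 ± 0.13) and Nfyc (-2.31 ± 0.22). Nfyb had signals of 31.2, 22.6, 37.4 and 41.1 and passed the background flag on 3 arrays. Of these 7 promoter-binding factors, 6 were thus detected, against 52.5% of all named genes. By the same flag the coactivator gene Ciita was not detected. With Agilent's less strict flag (signal positive and significant) Ciita was detected, as were 61.7% of all named genes. A link between these genes and class II levels was not tested.

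Genes of interferon gamma signalling were detected too. The receptor genes Ifngr1 (1.72 ± 0.06) and Ifngr2 (0.75 ± 0.06) had SDs among the 3 lowest of the list. The kinase genes Jak1 (1.67 ± 0.13) and Jak2 (-4.00 ± 0.27), which act at that receptor, and the transcription factor gene Irf1 (0.23 ± 0.15) were well above background on all arrays. Of the costimulation and checkpoint genes, Cd83 (1.42 ± 0.09) and Cd274, which encodes PD-L1 (-3.61 ± 0.13), were detected. Cd40 had signals of 13.9, 9.75, 12.5 and 9.47 and passed on 1 array, and Pdcd1lg2 had 3.48, 3.66, 4.04 and 4.00 and passed on none. The 2 ubiquitin ligase genes measured that act on MHC molecules, Marchf1 (-2.06 ± 0.19) and Marchf8 (0.64 ± 0.12), were detected.

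Of the class I-like genes outside RT1, 4 of 6 were detected, against 52.5% of all named genes. They were the neonatal Fc receptor gene Fcgrt (0.75 ± 0.13), the iron regulator Hfe (-1.10 ± 0.10), the lipid-presenting Cd1d1 (-4.19 ± 0.24) and the endothelial protein C receptor gene Procr (-4.91 ± 0.21). Mr1, which presents metabolites of microbial vitamin B2 synthesis, had signals of 6.49, 4.82, 5.43 and 5.23, and Azgp1 had 4.20, 4.62, 4.99 and 5.28. Neither was above background on any array.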

How the data were processed

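The intensity values used are the processed signals that the authors deposited: per the file headers, Agilent Feature Extraction had subtracted background from each of them, and the submitters' processing notes give its version as 11.0.1.1. Per the labels' protocols, 100 ng of RNA with an integrity number over 7.5 were used. Scaling between arrays is not stated in the headers or labels. The arrays lay on 1 slide and were scanned together, so neither could be tested as a batch. Of 62976 spots per array, 4259 control spots and those with an outlier flag were dropped; copies of a probe were then combined as the mean of their log2 signals. Gene symbols came from RefSeq's table for GRCr8 through unversioned accessions. The headers name rn4, so no gene coordinates are given from the array. Of 67 RT1- symbols in that table, 19 of them pseudogenes, 42 were measured. A gene's level came from its brightest detected probe. Variances were tested with limma 3.58.1 in R 4.3.3 over 8713 detected genes at an adjusted p of 0.05, and the procedure was tested on simulated data. The number of arrays limits the precision. To find dim areas, each array was divided into 12 by 10 blocks, and a block counted when 10% or more of its detected spots, and no fewer than 5, fell at least 1 log2 unit under the median of the other arrays. The members, lists and alternatives were chosen with earlier results of these data known. The rule for names covered all members and, of the other antigen presentation genes, the 3 highest and 3 lowest SDs and the undetected; others of those 39 were named after their values were seen, and 1 is not reported here.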

Additional observations from a re-analysis of the deposited data

Results flagged for a closer look

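In 3 of 30 detected members, 1 replicate stood apart: its distance to the nearest other, as a share of the whole range, passed Dixon's 95% critical value. Among all detected named genes the share was 6.47%, and chance flags about 1 in 20 groups. RT1-DMa was low in replicate 1 (ratio 0.9537), with its spot in a dim area of that array, and its ratio stayed above the critical value in every alternative that kept that spot. In RT1-CE13 it was replicate 2 that was low (ratio 0.8927), with a level of 1.62 beside 1.81, 1.79 and 1.80 in replicates 1, 3 and 4. That ratio fell between 0.4465 and 0.9263 over the alternatives, and was below the critical value in all but those that kept outlier-flagged spots or left out dim areas. For RT1-S3, replicate 2 was low as well (ratio 0.8724), with a level of 1.096 beside 1.25, 1.24 and 1.26. Its ratio was below the critical value with the 75th percentile over all probes (0.6777), quantile normalization (0.7403) and the mean over detected probes (0.2793).

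Of the other antigen presentation genes, the same held for Ctsl, Lnpep, Tapbpl, Hfe and Jak2. Ctsl was low in replicate 2 (ratio 0.8983), with a level of -2.10 beside -1.78, -1.80 and -1.81. Lnpep was high in replicate 2 (ratio 0.8891), with -4.02 beside -4.69, -4.62 and -4.65. Tapbpl was low in replicate 1 (ratio 0.8832), with -4.36 beside -2.62, -2.72 and -2.82, and its spot lay outside the dim areas. Hfe was high in replicate 1 (ratio 0.85), with -0.95 beside -1.16, -1.13 and -1.17. Jak2 was high in replicate 4 (ratio 0.8405), with -3.61 beside -4.18, -4.12 and -4.09.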

How the results depend on the processing

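No paired analysis was possible because all samples form 1 group. The 30 detected members were the same genes when detection was asked on 3 of 4 arrays, with outlier-flagged spots kept, without dim areas, and without each replicate in turn. With Agilent's less strict flag (signal positive and significant) RT1-CE6, RT1-M2, RT1-T24-2 and Ciita were detected in addition. That flag also raised the share of all named genes detected from 52.5% to 61.7%. When every probe of a gene had to pass, RT1-N2 and RT1-T18 were not detected, and the share of all named genes was 47.7%. The variance test called 0 members under all 14 alternatives. The number of members with 1 replicate apart was 3, and also 3 with outlier-flagged spots kept. It was 4 with normexp and 1 with quantile normalization. With the 75th percentile over all probes, median scaling or the mean over detected probes it was 2. The cause was not tested for these settings. With dim areas left out it was also 2, because RT1-DMa then had no value in replicate 1 and no ratio. These alternatives for that number were chosen after seeing the data. Levels moved by over 1 SD for 17 of 30 genes with normexp and for 12 with the mean over detected probes; scaling to another percentile shifted all levels alike. Symbols from the array design were not tried, as the files used here name probes by accession only. A gene with 1 probe near background is the least certain, as for RT1-Bb.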

Other observations

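Transcription factor genes that are known from dendritic cells, which share antigen presentation with macrophages, were detected in part. Batf3 (-1.03 ± 0.05, SD, n = 4), Irf4 (-1.94 ± 0.21) and Irf8 (-5.84 ± 0.59) were well above background on all arrays, as was the integrin gene Itgae (-4.53 ± 0.41). Irf8 had signals of 23.1, 25.6, 59.7 and 61.5, lower in replicates 1 and 2. The dendritic cell genes Zbtb46, Xcr1, Clec9a, Clec10a and Ccr7 were above background on no array. Of the dendritic cell markers, 4 of 9 measured were thus detected, against 52.5% of all named genes.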
